A study of Mus musculus with 6 samples.

Results

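The genes described here are 10 of the 20036 in the deposited table: those named CCND1, CCND2, CCND3, CCNE1, CCNE2, CDK2, CDK4, CDK6, CDKN1B and RB1, which encode G1 cyclins, their kinases, an inhibitor and the kinases' main substrate. All 10 were found in the table and all 10 had enough counts to be tested. Their transcripts were counted in RNA-seq libraries, 3 melittin and 3 control, of THP-1 cells, a cell line from a human acute monocytic leukaemia that had been turned into macrophage-like cells. In both groups, as far as the labels say, THP-1 cells were treated with PMA, a phorbol ester that makes them adherent and macrophage-like, at 100 ng/ml for 48 h. Tumour cells were then put into the upper chamber of a Transwell in the melittin group, and the macrophages below spent 48 h with melittin, the main peptide of bee venom, at 3 µg/ml. What the control wells held, tumour cells above included, is not stated in the labels, nor is their time in culture after PMA. Melittin, co-culture and time after PMA therefore cannot be told apart. The organism is labelled as mouse, but all 20036 gene identifiers are human and the values are read as human. No label ties the 3 libraries of a group to separate cultures, and the p-values therefore reflect only how these libraries vary, which may be technical.

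In early G1, D-type cyclins (CCND1, CCND2, CCND3) bind the kinases CDK4 and CDK6 in response to growth signals and phosphorylate RB1, the retinoblastoma protein. RB1 in its active form holds E2F transcription factors in check. E2F factors drive the E-type cyclins (CCNE1, CCNE2), which bind CDK2 and complete the step into S phase. CDKN1B encodes p27, an inhibitor that blocks cyclin E–CDK2 and is itself titrated by cyclin D complexes. PMA-treated THP-1 cells largely leave the cell cycle as they become macrophage-like. The table's Gene Ontology terms place all 10 genes in the G1/S transition of the mitotic cell cycle, a term that 66 genes of the table carry, and 8 of the 10 in the cyclin-dependent protein kinase holoenzyme complex. Of the 10, CCND2, CDKN1B, CDK2 and CDK4 lie on chromosome 12.

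Total counts were 16192032 to 19521897 in melittin libraries and 16001423 to 19597781 in control libraries. Of 12 macrophage markers tested, 5 were higher and 5 lower with melittin (41.7% each, where 38.1% of all tested genes were higher and 38.3% lower), and their summed level was 3828 to 3951 CPM in melittin and 4707 to 4731 CPM in control libraries (CPM here are counts scaled to library size after TMM correction for library composition). Their log2 fold changes ran from −2.81 (MSR1) to 1.31 (ITGAM). Most of the sum was ITGB2, with a mean of 2309 CPM with melittin and 2627 CPM in controls. ITGAM and ITGB2 were named after their values were seen. Among markers of prostate or other epithelial tumour cells, EPCAM, KRT18, KRT19, KLK2 and TMPRSS2 had 0 counts in every library, KLK3 had 2 counts over the melittin and 0 over the control libraries, and FOLH1 had 8 counts over the melittin and 59 over the control libraries. The part of these markers in the results that follow was not tested. In bulk RNA a change in the number of cells of a kind and a change in RNA per cell cannot be told apart.

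Across the 10 genes the kinases CDK6 and CDK2 moved in opposite directions, the inhibitor CDKN1B was higher, RB1 was lower, and the D-type cyclins changed in composition, with CCND2 higher from a very low level. In edgeR's quasi-likelihood test, with Benjamini-Hochberg adjusted p-values over all 12029 tested genes, 9 of the 10 passed an adjusted p of 0.05, where 76.4% of all tested genes did. Of the 10, 5 were higher (38.1% of all tested genes) and 4 were lower (38.3%). A share this near the background says little about the 10 as a group, so their sizes and directions are given one by one. Against a fold change of 1.5 rather than 0, 5 of the 10 passed, namely CCND2, CDK2, CDKN1B, CDK6 and RB1, where 29.1% of all tested genes did. The median log2 fold change of the 10 was 0.09, against −0.007 over all tested genes. In 9 of the 10 the values of the groups did not overlap, as in 77.4% of all tested genes. Scaling each library to its total count only, without TMM (called totals-only scaling from here on), moved the median of all genes by −0.23, to −0.24, and the values of the 10 genes by as much. Under it 9 of the 10 passed again, 4 higher and 5 lower, against 78.2% of all tested genes.

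**Figure D1:**
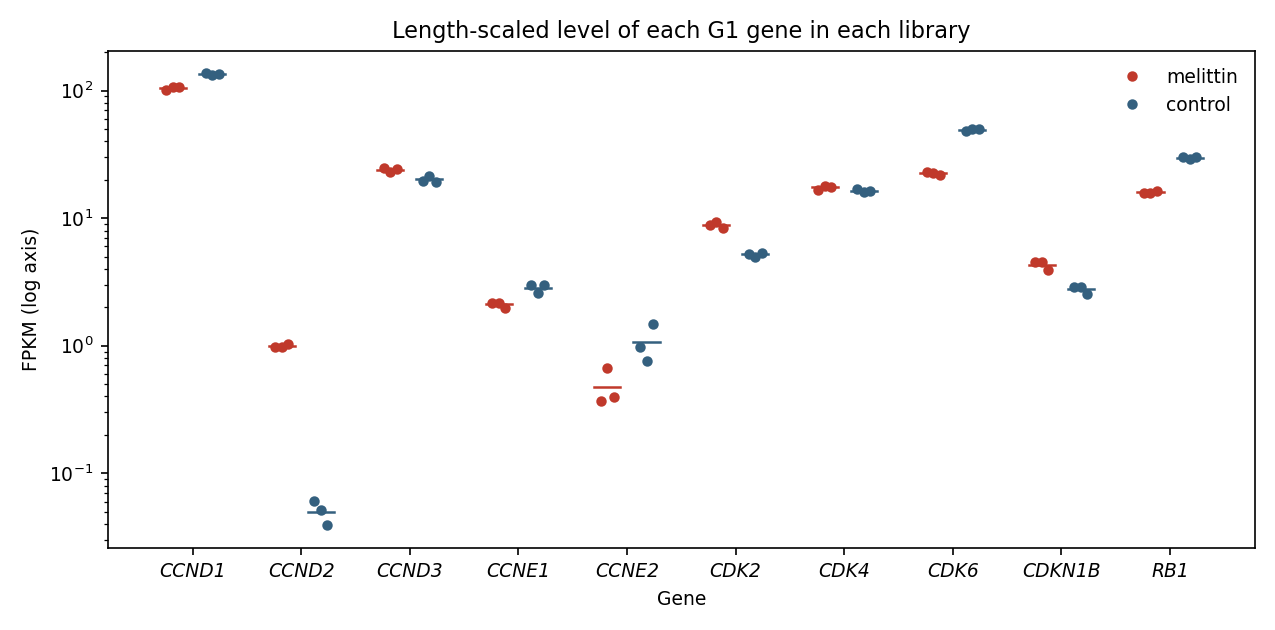
Level of each of the 10 genes in FPKM (counts scaled to gene length and library total, log axis) in each library; points are libraries, short lines the mean of 3, melittin in red on the left and control in blue on the right of each gene. CCND1 was highest in both groups, and CCND2 was near 1 FPKM in melittin libraries and near 0.05 FPKM in controls.

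Levels of different genes are compared in FPKM, which the authors computed per gene length and per total count of the library. In melittin libraries the order of mean FPKM was CCND1 (105), CCND3 (24.0), CDK6 (22.5), CDK4 (17.4), RB1 (16.0), CDK2 (8.85), CDKN1B (4.33), CCNE1 (2.11), CCND2 (0.992) and CCNE2 (0.476). In control libraries it was CCND1 (135), CDK6 (49.3), RB1 (29.7), CCND3 (20.1), CDK4 (16.4), CDK2 (5.19), CCNE1 (2.86), CDKN1B (2.76), CCNE2 (1.07) and CCND2 (0.0501). Among neighbours in these orders only CCNE1 and CDKN1B in controls had overlapping values. CDK6 and RB1 thus stood below CCND3 with melittin and above it in controls. By FPKM, 97.4% of all tested genes were at or below CCND1 in melittin libraries and 98.2% in controls, while 25.8% were at or below CCND2 in melittin libraries and 0.79% in controls.

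Of the D-type cyclins, CCND1 (chromosome 11, 69641156 to 69654474, plus strand, GRCh38) encodes cyclin D1, the member most often tied to growth factor signals. It had 521.7, 549.8 and 550.4 CPM in melittin libraries, against 600.4, 583.4 and 592.4 CPM in control libraries. The groups did not overlap, and the difference was small, with a log2 change of −0.13 (SE 0.025, adjusted p = 4.37e-05). It did not pass against 1.5-fold, and under totals-only scaling it was −0.36, so its size rests on the scaling while its direction was the same under either. LTO1 overlaps CCND1 on the opposite strand, with 304 counts over the melittin and 738 over the control libraries, against 26112 and 34841 of CCND1 itself.

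CCND2 (chromosome 12, 4269771 to 4305353, plus strand) encodes cyclin D2, the D-type cyclin of many blood cell lineages. It had 129, 152 and 133 counts in melittin libraries, against 9, 8 and 5 counts in control libraries. As CPM these are 8.39, 8.46 and 8.91 with melittin and 0.443, 0.377 and 0.289 in controls. All melittin libraries were far above all controls, and the mean was 23.2-fold higher; the fitted log2 fold change was 4.50 (SE 0.227, 95% interval 4.03 to 4.96, adjusted p = 3.35e-16). Of all tested genes, 99.9% had a change at or below this one, the highest of the 10. The control level rests on few counts: the exact Poisson 95% interval of the 5 counts runs from 1.62 to 11.7, and it covers counting error only. An unnamed gene overlaps most of CCND2 on the same strand and had 0 counts in every library.

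CCND3 (chromosome 6, 41934934 to 42050357, minus strand) encodes cyclin D3, which is prominent in haematopoietic cells. It had 152.9, 145.1 and 151.1 CPM in melittin libraries, against 103.4, 114.5 and 103.2 CPM in control libraries. The groups did not overlap, and the log2 fold change was 0.48 (SE 0.038, adjusted p = 7.96e-12), or 0.25 under totals-only scaling. It did not pass against 1.5-fold.

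The make-up of the D-type cyclins does not depend on library scaling, since it is a share within each library. CCND1 made up 79.9, 81.5 and 80.9% of the summed FPKM of the 3 cyclins in melittin libraries, against 87.5, 86.0 and 87.4% in control libraries. CCND3 made up 18.488 ± 0.798% with melittin and 12.995 ± 0.829% in controls (SD, n = 3 each), and CCND2 made up 0.765 ± 0.0167% with melittin and 0.0323 ± 0.00657% in controls. The groups did not overlap in any of these shares, so CCND1 remained the bulk of the D-type cyclin transcript while the share of the other two was larger with melittin. Each difference had an exact two-sided permutation p of 0.1, the smallest that 3 against 3 libraries allow, and 0.1 after Benjamini-Hochberg adjustment over the 12 sums, shares and ratios computed. The summed FPKM of the D-type cyclins, a sum chosen after its values were seen, was 130 ± 2.42 in melittin libraries and 155 ± 1.15 in controls (SD, n = 3 each). On the TMM scale the sum was 683 to 710 CPM with melittin and 696 to 704 CPM in controls, which overlap, so the lower summed FPKM depends on the scaling.

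**Figure D2:**
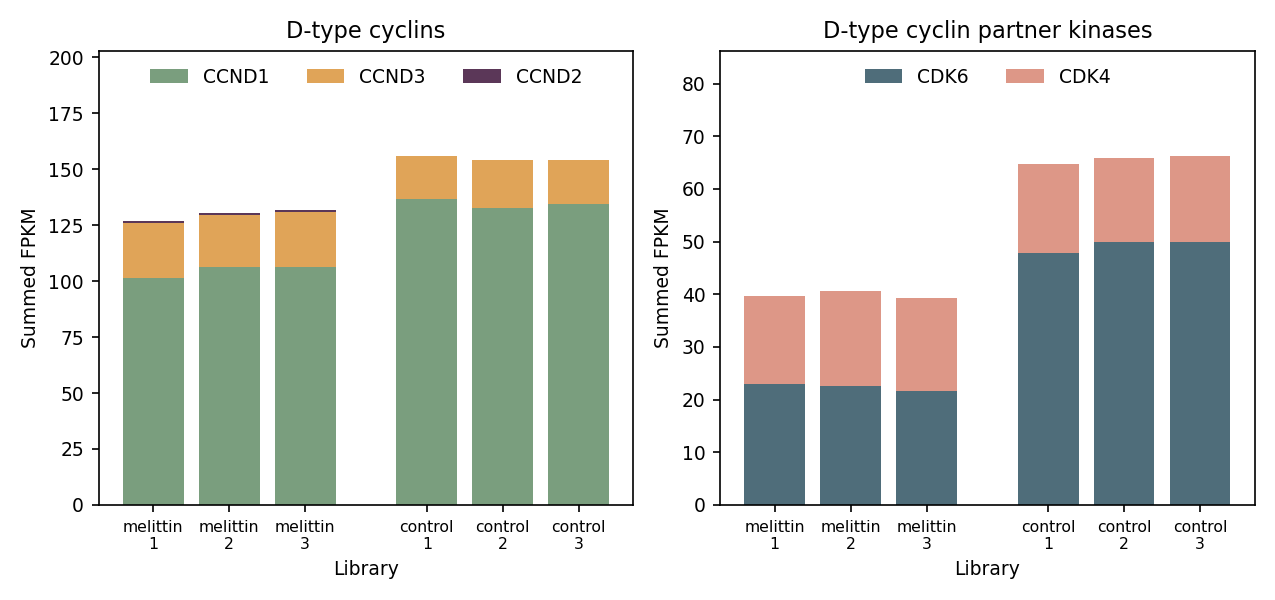
Summed FPKM of the D-type cyclins CCND1, CCND3 and CCND2 (left) and of the kinases CDK6 and CDK4 (right) in each library, melittin libraries to the left of controls, bars stacked from 0. CDK6 made up 56.3% of the kinase sum on average with melittin and 75.0% in controls.

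Of the kinases that D-type cyclins bind, CDK6 was lower and CDK4 differed little. CDK6 (chromosome 7, 92604921 to 92836573, minus strand) encodes the partner kinase that prevails in many blood cells. It had 304.4, 301.5 and 288.2 CPM in melittin libraries, against 541.0, 564.3 and 565.5 CPM in control libraries. Every melittin library was below every control, with a log2 change of −0.90 (SE 0.027, adjusted p = 3.07e-21), a mean 1.87-fold lower. CDK6 is a long gene with many counts, 14396 over the melittin and 32761 over the control libraries, and of the 10 only CCND1 had a smaller SE.

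CDK4 (chromosome 12, 57747727 to 57756013, minus strand) encodes the close relative of CDK6. It had 55.5, 60.4 and 59.2 CPM in melittin libraries, against 48.2, 45.8 and 46.9 CPM in control libraries. The groups did not overlap on this scale, and the log2 fold change was 0.32 (SE 0.050, adjusted p = 2.73e-06). Under totals-only scaling the value was 0.08 and did not pass (adjusted p = 0.125 by edgeR), so no change of CDK4 independent of the scaling is shown. CDK4 also overlaps TSPAN31 and MARCHF9 on the opposite strand, which had 1592 and 791 counts over the melittin and 1502 and 526 over the control libraries, and it is not stated whether the counting used strand.

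The ratio of CDK6 to CDK4, which is free of the scaling, was 1.39, 1.26 and 1.23 in FPKM in melittin libraries, against 2.84, 3.12 and 3.05 in control libraries. On the log2 scale it was lower by 1.22 with melittin (0.37 ± 0.0905 against 1.58 ± 0.0712, SD, n = 3 each; exact permutation p = 0.1, the smallest possible). The summed FPKM of the pair was 39.9 ± 0.672 with melittin and 65.7 ± 0.822 in controls. This sum, the CDK6 share of it and the ratios on the linear scale were chosen after their values were seen; each has the same smallest p.

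CDK2 (chromosome 12, 55966781 to 55972789, plus strand) encodes the kinase that E-type cyclins bind. It had 36.9, 39.7 and 35.3 CPM in melittin libraries, against 18.8, 17.9 and 19.2 CPM in control libraries. All melittin libraries were higher, with a log2 change of 1.005 (SE 0.070, adjusted p = 3.7e-13), a mean 2.0-fold higher. The change passed against 1.5-fold (adjusted p = 1.25e-06). The pigment gene PMEL overlaps CDK2 on the opposite strand and had 31 counts over the melittin and 15 over the control libraries, against 1807 and 1095 of CDK2.

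The E-type cyclins, the partners of CDK2, were low in both groups. CCNE1 (chromosome 19, 29811991 to 29824312, plus strand) had 89, 104 and 79 counts in melittin libraries, against 138, 126 and 117 counts in control libraries. In CPM these were 5.79, 5.79 and 5.29 with melittin and 6.79, 5.93 and 6.76 in controls. The melittin values lay just below the controls without overlap, and the log2 fold change of −0.20 did not pass (SE 0.134, 95% interval −0.48 to 0.07, adjusted p = 0.173). Under totals-only scaling it was −0.43 and passed (adjusted p = 0.0049 by edgeR).

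CCNE2 (chromosome 8, 94879770 to 94896678, minus strand) encodes cyclin E2. It had 27, 57 and 28 counts in melittin libraries, against 80, 65 and 105 counts in control libraries. As CPM these were 1.76, 3.17 and 1.88 with melittin and 3.94, 3.06 and 6.07 in controls. Melittin replicate 2 lay above control replicate 2, so the groups overlapped, the only such case among the 10. The log2 fold change was −0.89 (SE 0.245, adjusted p = 0.00184) and ran from −1.24 without melittin replicate 2 to −0.60 without control replicate 3 (adjusted p = 0.035 by edgeR). It did not pass against 1.5-fold (adjusted p = 0.113). NDUFAF6 and INTS8 overlap CCNE2 on the opposite strand. NDUFAF6 was lower too, with 241 counts over the melittin and 429 over the control libraries, against 112 and 250 of CCNE2. INTS8 had 3838 counts over the melittin and 3779 over the control libraries, many times those of CCNE2. Their part in the CCNE2 value was not tested.

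CDKN1B (chromosome 12, 12685498 to 12722369, plus strand), the gene of p27, had 45.2, 45.4 and 39.7 CPM in melittin libraries, against 24.6, 24.6 and 21.6 CPM in control libraries. The groups did not overlap, and the log2 fold change was 0.88 (SE 0.069, adjusted p = 4.72e-12), a mean 1.84-fold higher. The log2 ratio of the summed D-type cyclins to CDKN1B in FPKM was 4.91 ± 0.133 in melittin libraries and 5.81 ± 0.102 in controls (SD, n = 3 each; exact permutation p = 0.1, the smallest possible). There were thus fewer cyclin D transcripts per CDKN1B transcript with melittin in each of the 3 libraries.

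RB1 (chromosome 13, 48303744 to 48599436, plus strand) had 109.8, 110.8 and 114.0 CPM in melittin libraries, against 178.2, 172.2 and 179.3 CPM in control libraries. Every melittin library was lower, with a log2 change of −0.66 (SE 0.032, adjusted p = 1.69e-16), a mean 1.58-fold lower that passed against 1.5-fold (adjusted p = 0.0114). LPAR6 and RCBTB2 overlap RB1 on the opposite strand and were lower too, with 976 and 1562 counts over the melittin and 1740 and 3374 over the control libraries, against 5379 and 10381 of RB1. Their part in the RB1 value was not tested.

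**Figure D3:**
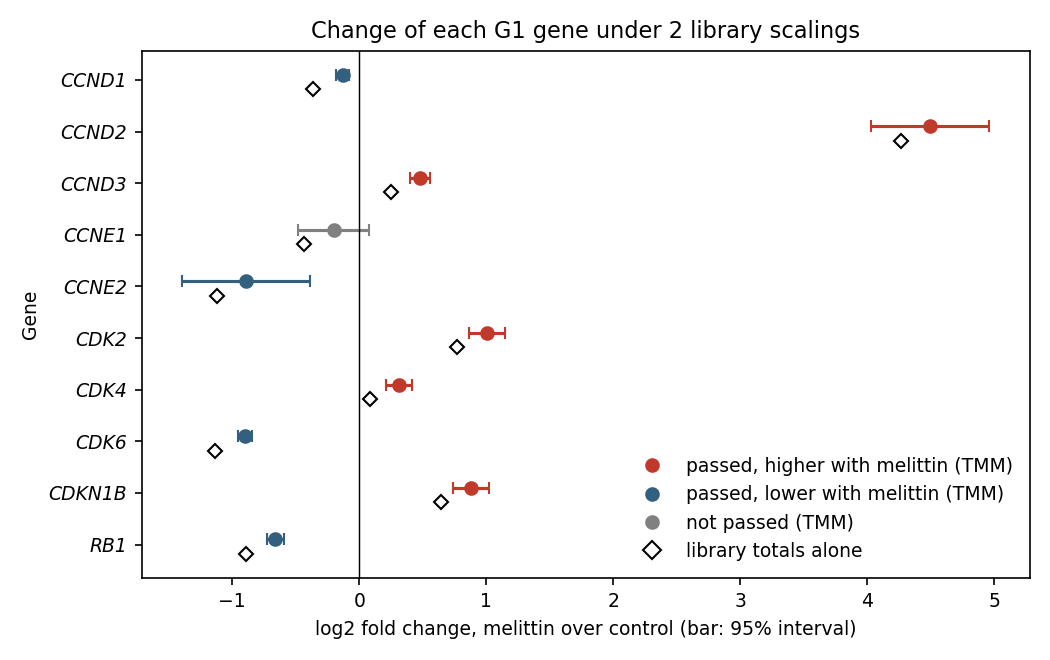
Log2 fold change of each of the 10 genes, melittin over control: filled points with 95% intervals after TMM scaling, open diamonds under totals-only scaling. CCND2 was at 4.50, CDK6 at −0.90, and the diamonds of all 10 genes lie to the left of the points without crossing 0.

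CCND2 had the largest change of the 10. The 3 tested genes whose log2 CPM, centred over the 6 libraries, lay closest to it by Euclidean distance among 12028 others were TCIM (distance 0.36), AKAP12 (0.47) and INHBA (0.61). TCIM had 2.02, 1.78 and 2.35 CPM in melittin libraries, against 0.0492, 0 and 0 CPM in control libraries. INHBA, which encodes the activin A subunit, had 688.9, 684.4 and 675.7 CPM with melittin, against 47.5, 47.3 and 50.3 CPM in controls. AKAP12, a scaffold of protein kinase A, had 14.4, 16.8 and 16.0 CPM with melittin and 0.935, 0.895 and 0.925 CPM in controls. With 2 groups, such likeness mostly reflects a similar difference between them on the scale used for the distance. That scale added a prior count of 2, which shrinks low values. The fitted log2 fold changes were 6.41 for TCIM, 4.09 for AKAP12 and 3.82 for INHBA, against 4.50 for CCND2.

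The other genes of the pathway were taken from 9 lists with 90 genes, of which 86 were tested. Of these, 24 were higher (27.9%) and 45 lower (52.3%) with melittin, against 38.1% and 38.3% of all tested genes, and their median log2 fold change was −0.23. Under totals-only scaling 15 were higher and 61 lower, where 26.3% of all tested genes were higher and 51.9% lower. The inhibitors stood on the higher side, most E2F factors and S-phase genes on the lower.

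All 4 tested inhibitors beside CDKN1B were higher, where 38.1% of all tested genes were (median log2 fold change 0.91). They were also higher under totals-only scaling, where 26.3% of all tested genes were. CDKN1C, the gene of p57, had 2.37 ± 0.237 CPM in melittin and 0.666 ± 0.304 CPM in control libraries (SD, n = 3 each), a log2 fold change of 1.86 (adjusted p = 6.15e-06). CDKN2D and CDKN2C, INK4 inhibitors that bind CDK4 and CDK6, had log2 fold changes of 1.07 and 0.76. CDKN1A, the gene of p21, was named after its values were seen. It had 1774 ± 57.1 CPM in melittin and 1058 ± 9.95 CPM in control libraries, a log2 fold change of 0.75 (adjusted p = 2.55e-21 by edgeR). Per length it far exceeded CDKN1B, at 546 FPKM with melittin and 382 FPKM in controls. CDKN2A and CDKN2B were not tested, with 0 counts of CDKN2A in every library and 1 count of CDKN2B in all.

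Of 10 E2F and DP factors, 2 were higher (20%, against 38.1% of all tested genes) and 7 lower (70%, against 38.3%), with a median of −0.40. Those 7 were also lower under totals-only scaling, where the share of all tested genes that were lower was 51.9%. E2F1, an activating E2F, had 3.40 ± 0.862 CPM in melittin and 6.41 ± 0.125 CPM in control libraries, and E2F8, a repressive E2F, had 9 counts over the melittin and 131 over the control libraries (log2 fold change −3.53). E2F2, named after its values were seen, had 5 counts over the melittin and 96 over the control libraries. E2F7, the relative of E2F8, went the other way, with 115 ± 1.25 CPM with melittin and 51.9 ± 2.51 CPM in controls (log2 fold change 1.15, adjusted p = 2.71e-19 by edgeR). E2F4, a repressive E2F named after its values were seen, was the other that rose, by 0.28, a call lost under totals-only scaling (0.05, adjusted p = 0.268 by edgeR). Of the RB1 relatives, RBL1 (p107) was lower, with 5.96 ± 0.921 CPM with melittin and 15.7 ± 2.22 CPM in controls. RBL2 (p130), the pocket protein of resting cells, was higher by 0.13 on the log2 scale with TMM and lower under totals-only scaling (−0.10).

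Of 23 G1/S genes that E2F factors regulate, 16 were lower, 5 higher and 2 did not pass (median −0.76). That is 69.6% lower and 21.7% higher, against 38.3% and 38.1% of all tested genes. The 16 stayed lower under totals-only scaling, where 51.9% of all tested genes were lower. GINS2 and CDC45, parts of the replicative helicase, had log2 fold changes of −2.92 and −2.53. RRM2, a subunit of the enzyme that makes deoxynucleotides, had 6.57 ± 0.916 CPM in melittin and 24.5 ± 3.30 CPM in control libraries. The 5 that were higher were RFC2 (0.94), CDT1 (0.71), RRM1 (0.40), MCM6 (0.21) and SLBP (0.11), all named after their values were seen, of which MCM6 and SLBP changed sign under totals-only scaling (−0.02 and −0.12). Of 12 genes of the S, G2 and M phases 10 were lower (83.3%, against 38.3% of all tested genes) and 0 higher (median −1.05). These 10 were lower under totals-only scaling too, against the same 51.9% of all tested genes. MKI67, the gene of the proliferation marker Ki-67, had 3.87 ± 0.665 CPM with melittin and 15.2 ± 0.527 CPM in controls, and CENPF and BIRC5 had log2 fold changes of −1.88 and −1.61.

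The remaining lists were mixed. Of 5 tested genes of the CDK-activating kinase and the CDC25 phosphatases, 2 were higher and 2 lower. That is 40% each, near the 38.1% and 38.3% of all tested genes. CDC25A, which activates CDK2, was lower (0.862 ± 0.122 CPM with melittin and 6.04 ± 0.556 CPM in controls), as was CDC25B (−1.06). MNAT1 (0.59) and CCNH (0.42, named after its values were seen) were higher. The DREAM complex represses cycle genes in resting cells. Of 5 tested genes of its MuvB core and DYRK1A, 2 were higher and 2 lower, again 40% each and near all tested genes. LIN9 (−1.02) and RBBP4 (−0.11, named after its values were seen) were lower and LIN54 (0.57) higher. DYRK1A (0.12), a kinase that promotes the assembly of the complex, was also higher. DYRK1A turned to −0.11 under totals-only scaling and RBBP4 to 0.03 with the length trend removed. Of 13 ubiquitin ligase genes that act on G1 cyclins or p27, 5 were lower (38.5%, near the 38.3% of all tested genes), among them CUL1 (−0.64), CUL4A (−0.59) and FBXO4 (−0.52), 1 was higher (FBXO31, 0.41, named after its values were seen) and 7 did not pass. Under totals-only scaling those 7 passed as lower (−0.47 to −0.16), where 51.9% of all tested genes were lower, so this count depends on the scaling. Of 12 upstream regulators 7 were higher (58.3%, against 38.1% of all tested genes) and 2 lower (16.7%, against 38.3%). Under totals-only scaling 3 were higher and 6 lower, near the 26.3% and 51.9% of all tested genes, and CTNNB1, EGR1 and SP1, named after their values were seen, changed sign (0.14, 0.12 and 0.20 with TMM; −0.09, −0.11 and −0.03 under totals-only scaling). MYC had 17.7 ± 0.880 CPM with melittin and 62.3 ± 1.59 CPM in controls (log2 fold change −1.81), TCF7L2 was the other that was lower (−0.55, named after its values were seen), and STAT5A (1.21) and FOS (0.998) were higher.

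**Figure D4:**
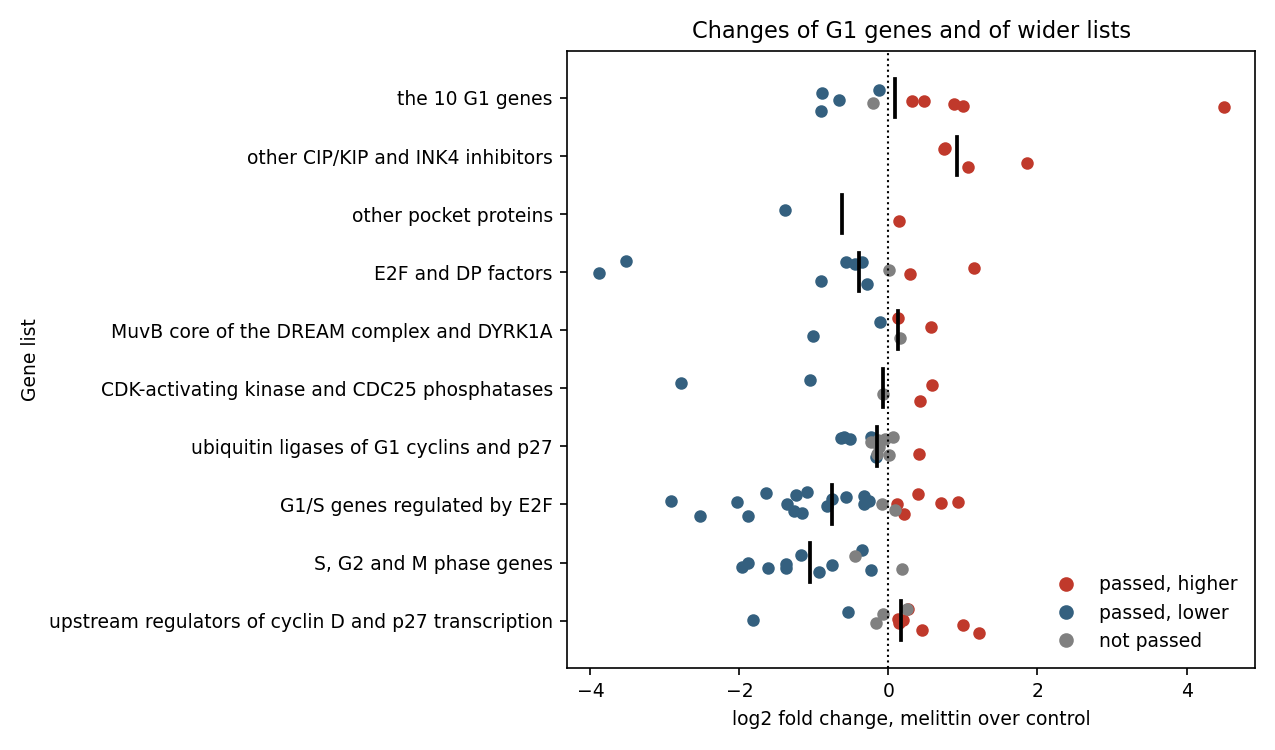
Log2 fold change, melittin over control, of the 10 G1 genes and of each tested gene of the 9 wider lists; points are genes (vertical scatter is arbitrary), black bars list medians, the dotted line the median of all tested genes (−0.007). Of the inhibitors the lowest, CDKN1A, lies at 0.75, and most E2F, G1/S and mitotic genes lie below 0.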

How the data were processed

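Libraries were made from total RNA with the NEBNext Ultra II kit, per the labels' protocols, and the genome build was GRCh38, per the submitters' processing notes. Which aligner, counter, strandedness and annotation release were used is not given in the sources used here. Deposited values are raw read counts per gene and library, gene lengths, and FPKM values, which equal the authors' counts over gene length and library total count to within 2.2e-09 (relative) where a count was at least 20. The counts were tested in R 4.3.3 with edgeR 4.0.16, using filterByExpr (12029 genes kept), TMM scaling, glmQLFit and glmQLFTest with the group as the only term, two-sided, Benjamini-Hochberg adjustment over all tested genes and a threshold of 0.05. SEs were derived from the test, as the size of the log2 fold change over the square root of its F statistic. A single count corresponded to 0.0471 to 0.067 CPM. DESeq2 1.42.0, limma 3.58.1 and other scalings and filters were alternatives. The steps were tested on simulated data.

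Pairs of libraries were compared over genes with at least 20 counts in the pair: chi-square over its degrees of freedom was 2.23 to 3.92 between melittin and 1.73 to 1.76 between control libraries, so each was counted as 1 replicate. The labels give no batch or date. The 10 genes and the wider lists were chosen with earlier results of these data known. Named beyond the 10 were, per list, up to 3 passing genes with the largest change whose mean reached 1 CPM; for the member with the largest change, the 3 tested genes nearest to it; other genes are marked as named after their values were seen. The reference at hand was of mouse and was not used here. Part of the tumour cell marker list is not reported here.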

Additional observations from a re-analysis of the deposited data

How the results depend on the processing

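The directions of the 10 genes were the same under all 17 alternatives. Against a fold change of 1.5, 3495 genes passed (1761 higher, 1734 lower), 5 of the 10 (3 higher, 2 lower) and 32 of the wider lists (7 higher, 25 lower); CCND1 (−0.13), CCND3 (0.48), CCNE2 (−0.89) and CDK4 (0.32) then missed the threshold. CDK4 also missed it under totals-only scaling (0.085) and in limma on log2(FPKM + 0.1) (0.082) and log2(FPKM + 1) (0.078). CCNE1 passed under totals-only scaling (−0.43), with the length trend removed (−0.38) and on FPKM (−0.42 with a pseudocount of 0.1, −0.31 with 1). FPKM is scaled by totals, so these fits share that scaling. The log2 fold change of CCND2 was 2.86 and 0.92 with these pseudocounts, which shrink low values. The wider lists had 15 higher under totals-only scaling and 15 on FPKM with either pseudocount. Of all passing genes 49.8% were higher, and 33.6% under totals-only scaling. In CPM rather than FPKM the shares of CCND1 and CCND2 among the D-type cyclins differed by −7.30 and 1.18 percentage points, against −6.23 and 0.732. Of the genes named, signs turned in RBL2 (−0.096 under totals-only scaling, −0.097 and −0.089 on FPKM), DYRK1A (−0.11, −0.105 and −0.083), MCM6 (−0.016, −0.014 and −0.013), CTNNB1 (−0.093, −0.093 and −0.091), SP1 (−0.033, −0.034 and −0.033), EGR1 (−0.11, −0.11 and −0.11, and −0.0067 with the length trend removed) and SLBP (−0.12, −0.12 and −0.12, and −0.12 with the length trend removed), and in RBBP4 with the length trend removed (0.032); the cause was not tested. Leaving out 1 library at a time, 9 of the 10 passed in each of the 6 fits. DYRK1A was lost without melittin replicate 1 (0.09), EGR1 without control replicate 2 or melittin replicate 2 (0.08 and 0.10), SLBP without control replicate 1 or melittin replicate 2 (0.08 and 0.10), and RBBP4 without control replicate 1 or melittin replicate 1 (−0.08 and −0.08). Samples of the same number did not deviate together (correlations −0.046, 0.018 and −0.019), and 2 of the 6 correlated best with a library of their own number. No pairing by number was thus seen, though 3 libraries per group are too few to exclude it. With the replicate block 9050 genes, 9 of the 10 and 69 of the wider lists passed.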
